A study of Mus musculus with 14 samples.

Results

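Brg1 peaks were compared between fetal liver cells carrying EBF1 without residues 480 to 520 (dPLD) and cells carrying EBF1 without its whole C-terminal domain (dC). A dPLD-only peak was a Brg1 peak of the dPLD list that shared no base with any dC peak, and a dC-only peak was the reverse. On chromosomes 1 to 19, X and Y, 2581 of 27550 dPLD peaks were dPLD-only and 5239 of 30301 dC peaks were dC-only. Together these were 7820 of the 57851 peaks in both lists and of 196179 peaks in the 9 lists of the study.

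EBF1 is a transcription factor that starts the B-cell programme in lymphoid progenitors. It binds a near-palindromic DNA site as a dimer, and its C-terminal domain, outside the DNA-binding part, acts in gene activation and opening of chromatin. Brg1 is the ATPase subunit encoded by Smarca4 in BAF and PBAF complexes, which move or evict nucleosomes at promoters and enhancers. A prion-like domain is a stretch of low sequence complexity, and the dPLD label refers to one at residues 480 to 520 within the C-terminal domain. The comparison therefore concerns the part of the C-terminal domain that dPLD keeps and dC lacks.

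In both groups the cells were C57BL/6 EBF1-/- c-kit+ lymphocyte progenitors from fetal livers of embryonic day 16 to 18. They had been transduced with a pMys retroviral vector that carries the EBF1 version and, through an IRES, GFP, and were grown for 14 to 20 days on OP9 stroma with IL7, SCF and a factor that the labels call Flt3. Brg1 ChIP used crosslinking with EGS and 2% formaldehyde. The labels give the same stage for dPLD and dC cells, a partial block ahead of the pro-B stage. The same progenitors with F-GATA3 (EBF1 whose C-terminal domain was replaced by the TA1 domain of GATA3) or with wt EBF1 were labelled pro-B, and those with the empty vector were labelled as blocked. A-MuLV pro-B cells, transformed with Abelson virus and derived from EBF1 fl/fl fetal liver, had their EBF1 replaced by dC or wt and gave 2 Brg1 and 2 EBF1 lists. No A-MuLV list of dPLD was used here, so the EBF1 sites are those of dC or wt EBF1 in another cell system.

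Each group had 1 library, so no test across conditions was made and no spread between replicates is known. Percentages of peaks carry exact Clopper-Pearson 95% intervals in parentheses, which reflect counting error alone and describe these libraries, not the conditions. Fold enrichment is the authors' value at the summit of a peak relative to its local background, and values from different lists are set side by side without a comparison between them. The dPLD and dC lists were alike in the smallest −log10 q they hold (10.0063 and 10.0022), in median width (1325 bp and 1248 bp) and in covered length (43.3 Mb and 45.1 Mb). Read depth, recovered from the steps in fold and −log10 p, was 1.04 times as high with dPLD as with dC, if both were set against the single fetal liver input that the labels describe. It was 1.39 times the wt depth with dPLD and 1.34 times the wt depth with dC. Sites with no call may still have carried Brg1 below the authors' threshold.

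The 2 promoters with the highest fold among those that a dPLD-only peak overlapped were Neu1 and Mmp14, and those for dC-only peaks were Chst11 and H1f10. Neu1 encodes a lysosomal sialidase, Mmp14 a membrane-bound matrix metalloproteinase, Chst11 a chondroitin sulfotransferase and H1f10 a linker histone. They are shown so that the presence or absence of the EBF1 core palindrome CCCNNGGG, the same on both strands, can be read beside the Brg1 calls. Each line gives the 250 bases before the start site, 5′ to 3′ on the gene's strand, from RefSeq on GRCm38.p6, with that core in capitals where it occurs. The windows are chr17:34931003-34931252 (plus strand) for Neu1, chr14:54431348-54431597 (plus strand) for Mmp14, chr10:82985247-82985496 (plus strand) for Chst11 and chr6:87981483-87981732 (minus strand) for H1f10.
Neu1: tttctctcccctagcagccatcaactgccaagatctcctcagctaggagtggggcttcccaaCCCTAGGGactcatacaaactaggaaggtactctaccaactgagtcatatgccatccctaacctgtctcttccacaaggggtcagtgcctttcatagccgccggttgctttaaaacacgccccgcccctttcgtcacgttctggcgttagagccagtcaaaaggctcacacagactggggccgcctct
Mmp14: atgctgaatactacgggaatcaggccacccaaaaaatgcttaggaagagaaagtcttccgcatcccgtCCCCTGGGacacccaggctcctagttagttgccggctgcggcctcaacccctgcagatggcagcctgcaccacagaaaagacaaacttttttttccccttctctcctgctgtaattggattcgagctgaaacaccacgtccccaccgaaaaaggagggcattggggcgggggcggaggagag
Chst11: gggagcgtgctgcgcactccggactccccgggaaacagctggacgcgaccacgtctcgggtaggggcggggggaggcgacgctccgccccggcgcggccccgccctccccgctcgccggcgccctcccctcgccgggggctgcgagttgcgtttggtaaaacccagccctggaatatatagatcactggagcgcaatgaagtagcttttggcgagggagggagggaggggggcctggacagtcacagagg
H1f10: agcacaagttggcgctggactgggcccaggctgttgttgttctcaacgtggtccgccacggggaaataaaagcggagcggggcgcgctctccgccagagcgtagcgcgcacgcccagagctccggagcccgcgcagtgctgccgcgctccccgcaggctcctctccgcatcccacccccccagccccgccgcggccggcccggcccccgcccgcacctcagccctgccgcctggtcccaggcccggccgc

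The Neu1 core began at −188 and the Mmp14 core at −182 from the start site, and the Chst11 and H1f10 windows held none. Among further promoters of high fold, the dPLD-only Rgs19 and the dC-only Ephb2 and Ppm1m windows held the core. The dPLD-only Cd36 and dC-only Sytl3 windows, among others, held none, so the windows shown do not stand for their classes. At Neu1, fetal liver Brg1 was called with a fold of 9.58 with dPLD, 16.1 with F-GATA3 and 13.9 with wt, and not with dC or with the empty vector. In A-MuLV cells Brg1 was called there with dC (4.93) and with wt (9.79). A dC EBF1 peak (5.80) and no wt EBF1 peak lay over the Neu1 window. At Mmp14 the fetal liver Brg1 folds were 8.88 with dPLD, 8.06 with F-GATA3 and 9.27 with wt, with no dC or empty-vector call, and EBF1 peaks of 22.5 (dC) and 9.28 (wt) lay over it. A-MuLV Brg1 was called at Mmp14 with dC (4.14) and with wt (3.13). At Chst11 fetal liver Brg1 was called with dC (10.9), F-GATA3 (5.34) and the empty vector (8.92), but not with dPLD or wt. H1f10 had a Brg1 peak with dC (9.17) and in none of the other 8 lists. Neither of these dC-only promoters overlapped an EBF1 peak.

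Over all 32851 promoter windows of 300 bases (250 before to 50 after the start), 13.7% (13.3-14.0) held CCCNNGGG. It was in 62 of the 288 windows that a dPLD-only peak overlapped (21.5%, 16.9-26.7) and in 123 of 654 under a dC-only peak (18.8%, 15.9-22.0). The share was 18.4% (17.7-19.2) in windows under peaks called with both and 10.8% (10.4-11.3) in windows with neither. The core was thus about as frequent at dPLD-only, dC-only and shared promoters, with overlapping intervals. The longer palindrome TCCCNNGGGA, which contains the core, was rarer at 0.904% of all windows. It was found in 6 dPLD-only windows (2.08%, 0.768-4.48) and 2 dC-only windows (0.306%, 0.0371-1.10), numbers too small to order. Where an EBF1 peak also lay over the window, 13 of 24 dPLD-only (32.8-74.4) and 6 of 13 dC-only windows (19.2-74.9) held the core. Both intervals include the share over all windows at an EBF1 peak, 613 of 1648 (37.2%, 34.9-39.6).

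Peaks called with dPLD and dC alike made up most of both lists. Of the dPLD peaks 9.37% (9.03-9.72) were dPLD-only, and of the dC peaks 17.3% (16.9-17.7) were dC-only. The shared part comprised 24969 dPLD and 25062 dC intervals. With the dC list held to its 27550 strongest peaks there were 3523 dPLD-only and 3505 dC-only peaks, a near equality that lists of equal length produce by construction. By the same arithmetic, the excess of dC-only over dPLD-only peaks was close to the difference in length of the lists, because the shared intervals were nearly equal in number.

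Peaks called in 1 list were weak in that list. Their median fold was 5.27 for dPLD-only and 5.48 for dC-only peaks, against 7.14 in dPLD and 7.75 in dC peaks called with both. Their median widths were 681 bp and 680 bp, against 1406 bp and 1399 bp in shared peaks. The highest dPLD-only fold was 10.9 and the highest dC-only fold 14.0, while shared peaks reached 31.8 with dPLD and 37.0 with dC. A −log10 q of at least 20 was reached by 207 dPLD-only peaks (8.02%) and 492 dC-only peaks (9.39%). Peaks with a −log10 q of 10 to 12 were called in the other list in 61.7% (60.0-63.5) of dPLD and 37.6% (36.0-39.3) of dC cases. From 50 upwards both shares were 99.9%, which left 4 of 3916 dPLD peaks and 5 of 5199 dC peaks without a partner. The dC list was the longer one, and its shared peaks had a higher median −log10 q (29.1 against 25.1 with dPLD). Neither difference was adjusted for in these shares.

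**Figure D1:**
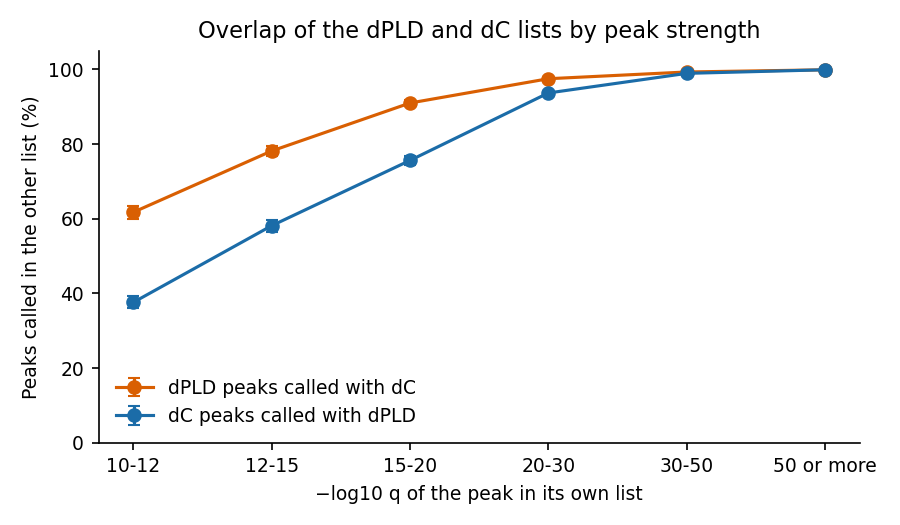
Percentage of dPLD peaks called with dC (orange) and of dC peaks called with dPLD (blue), by the −log10 q of the peak in its own list, with exact 95% intervals (often smaller than the points). Both curves reach 99.9% at 50 or more, and the dPLD curve lies above the dC curve at 10 to 12, with 61.7% against 37.6%. The dC list was the longer one, which was not adjusted for.

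Where both libraries had a peak, its place and width were nearly the same. Among 23744 peaks that paired 1 to 1, the median width was 1386 bp with dPLD and 1381 bp with dC, and the median width ratio of dPLD over dC was 1.01. Summits lay a median of 46 bp apart, and 90.3% lay within 200 bp. Peaks of 1 list were mostly not shoulders of the other list's peaks. The nearest dC peak lay a median of 8.21 kb from a dPLD-only peak, and the nearest dPLD peak 9.76 kb from a dC-only peak. Within 1 kb there was such a neighbour for 275 dPLD-only (10.7%) and 430 dC-only peaks (8.21%).

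Both classes held a gene start less often than shared peaks did. A start site of the promoter table fell inside 9.02% (7.93-10.2) of dPLD-only and 10.0% (9.23-10.9) of dC-only peaks, against 32.6% (32.0-33.2) of shared dPLD intervals. A protein-coding gene held or touched 59.4% (57.4-61.3) of dPLD-only, 56.0% (54.6-57.3) of dC-only and 68.1% (67.5-68.7) of shared peaks. Shared peaks were also wider, with a median of 1406 bp against 681 bp and 680 bp, and so meet a start more easily. Width was not adjusted for.

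More of the dPLD-only than of the dC-only peaks were sites that also had Brg1 with wt EBF1. A wt peak overlapped 58.3% (56.4-60.3) of dPLD-only and 28.8% (27.6-30.1) of dC-only peaks. F-GATA3 peaks overlapped 41.3% (39.4-43.2) of dPLD-only and 16.7% (15.7-17.7) of dC-only peaks. The order was opposite for the empty vector, whose peaks overlapped 9.65% (8.54-10.9) of dPLD-only and 20.2% (19.1-21.3) of dC-only peaks. Holding both lists to a −log10 q of at least 20 redrew the classes, as 1600 dPLD-only and 3812 dC-only peaks. Only 207 and 492 of these had no peak of any strength in the other list. The wt shares of the redrawn classes were 94.8% (dPLD-only) and 74.9% (dC-only), so most peaks of both overlapped a wt peak. Without that minimum, shared peaks stood at 80.9% (F-GATA3), 89.8% (wt) and 41.8% (empty vector). The dPLD-only and dC-only peaks compared here had nearly the same median width, as given above.

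**Figure D2:**
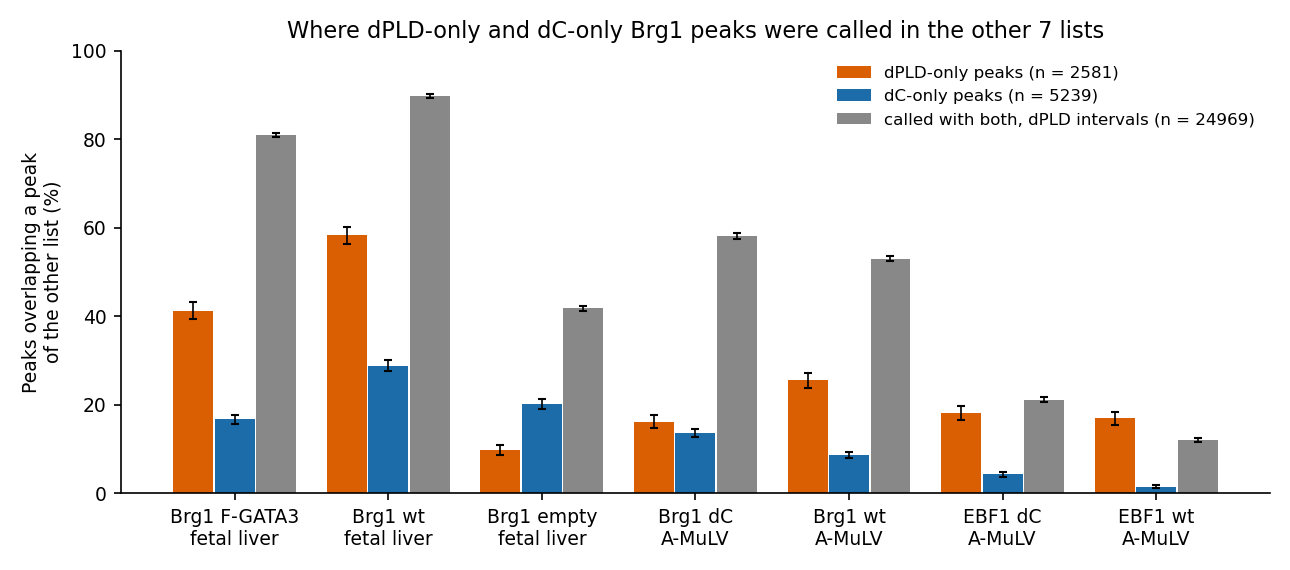
Percentage of dPLD-only peaks (orange), dC-only peaks (blue) and peaks called with both (grey) that overlapped a peak of each of the other 7 lists, with exact 95% intervals for counting error. The orange bar is above the blue one in 6 lists, and below it for the empty vector (9.65% against 20.2%).

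Combining the lists, 53.4% (51.4-55.3) of dPLD-only peaks had a wt and no empty-vector peak, against 23.0% (21.9-24.2) of dC-only peaks. Peaks of the empty vector that wt lacked made up 4.65% (3.87-5.53) of dPLD-only and 14.4% (13.4-15.4) of dC-only peaks. In none of the wt, F-GATA3 and empty-vector lists were 31.9% (30.1-33.7) of dPLD-only and 52.2% (50.8-53.6) of dC-only peaks. Thus the commonest state of a dC-only peak was a call in dC alone among the 5 fetal liver lists.

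Among peaks with no partner of any strength in the other list, the contrast widened with the strength of the peak. Of the 207 dPLD-only peaks with a −log10 q of at least 20, 197 overlapped a wt peak (95.2%, 91.3-97.7) and 10 an empty-vector peak (4.83%, 2.34-8.70). Of the 492 dC-only peaks at that strength, 171 overlapped a wt peak (34.8%, 30.5-39.1) and 161 an empty-vector peak (32.7%, 28.6-37.1). At a −log10 q of 10 to 12 the wt shares were 44.8% for dPLD-only and 24.0% for dC-only peaks.

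Peaks of dC EBF1 in A-MuLV cells lay at 467 dPLD-only peaks (18.1%, 16.6-19.6) and at 225 dC-only peaks (4.29%, 3.76-4.88). Peaks of wt EBF1 lay at 436 dPLD-only peaks (16.9%, 15.5-18.4) and at 74 dC-only peaks (1.41%, 1.11-1.77). Shared peaks had 21.1% for dC EBF1 and 12.0% for wt EBF1, so both EBF1 shares were lowest in dC-only peaks. In the strong peaks, with a −log10 q of at least 20, an EBF1 wt peak overlapped 101 of 207 dPLD-only peaks (48.8%, 41.8-55.8) and 1 of 492 dC-only peaks (0.203%, 0.00515-1.13).

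The A-MuLV Brg1 lists, which share no library with the fetal liver lists, gave a split of the same direction. Those lists reach down to a −log10 q of 1.33 (dC) and 1.37 (wt), far below the others, so a call in them can be weaker. A-MuLV Brg1 dC peaks overlapped 16.2% (14.8-17.7) of dPLD-only and 13.6% (12.7-14.5) of dC-only peaks. A-MuLV Brg1 wt peaks overlapped 25.5% (23.9-27.3) of dPLD-only and 8.59% (7.84-9.38) of dC-only peaks. Among dPLD-only peaks called in 1 of those 2 lists, 167 were in A-MuLV dC and 408 in A-MuLV wt (71.0% in wt, 67.1-74.6). Among dC-only peaks 461 were in A-MuLV dC and 199 in A-MuLV wt (30.2% in wt, 26.7-33.8). Peaks called with both dPLD and dC had 3076 in A-MuLV dC and 1808 in A-MuLV wt (37.0% in wt, 35.7-38.4), which lies nearer to the dC-only value.

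At EBF1 sites, Brg1 was called with dPLD more often than with dC when wt EBF1 had bound the site. At 4719 sites called with wt and dC EBF1, Brg1 was present at 70.2% (68.9-71.6) with dPLD and 63.7% (62.3-65.1) with dC. Sites with Brg1 in 1 of the 2 libraries numbered 379 with dPLD and not dC, and 71 with dC and not dPLD, a dPLD share of 84.2% (80.5-87.5). At 1436 sites called with wt EBF1 alone, Brg1 was present at 23.0% with dPLD and 15.5% with dC, and the split was 123 to 15 (89.1%, 82.7-93.8). At 6454 sites called with dC EBF1 alone there was no such lead: Brg1 was present at 45.3% with dPLD and 45.5% with dC, with a split of 183 to 200 (47.8%, 42.7-52.9). Peaks of either list at no EBF1 peak split 2007 to 5004 (28.6%, 27.6-29.7), and they make up most of all 2581 and 5239 peaks, which split at 33.0% (32.0-34.1). With lists of equal length the dC-alone sites moved to 59.6% (54.5-64.5) and with a −log10 q of at least 20 in both lists to 33.6% (29.3-38.1), so their direction changed with the setting.

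Peaks gained with wt EBF1, meaning wt Brg1 peaks absent with the empty vector, were present in nearly equal numbers. Of 18765 such peaks, 77.2% (76.6-77.8) were called with dPLD and 76.3% (75.7-76.9) with dC. The sites that differed split 1411 to 1237, a dPLD share of 53.3% (51.4-55.2). This small lead turned to 39.2% (37.6-40.9) when both lists were held to a −log10 q of at least 20. With lists of equal length the dPLD share rose to 68.8% (67.0-70.5), so the near balance is that of the full lists. The near balance was made of unequal parts. At the 4294 gained peaks with an EBF1 peak, Brg1 was present at 82.0% with dPLD and 73.1% with dC, and 477 sites against 93 differed (83.7%, 80.4-86.6). At the 14471 without one, Brg1 was present at 75.8% with dPLD and 77.2% with dC, and 934 against 1144 differed (44.9%, 42.8-47.1).

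Gained peaks also divided by their own strength. They were put into 4 bins of similar size by wt fold. In the lowest bin, up to a fold of 5.46, the split was 431 to 591 (42.2%, 39.1-45.3). The second bin had 361 to 419 (46.3%) and the third 310 to 198 (61.0%). In the highest bin, from a fold of 8.55, Brg1 was called at 95.4% of sites with dPLD and at 89.3% with dC, and the split was 309 to 29 (91.4%, 87.9-94.2). With the Igk locus left out, the highest bin had 281 to 29 (90.6%, 86.8-93.6). Sites of EBF1 itself were binned in the same way by their EBF1 fold. Over the bins of EBF1 dC peaks, from low to high, the dPLD shares were 53.0% (45.1-60.8), 64.1% (57.1-70.6), 69.3% (62.7-75.4) and 78.8% (73.1-83.7). Over those of EBF1 wt peaks they were 80.9% (73.1-87.3), 83.2% (76.2-88.8), 86.3% (79.9-91.2) and 90.5% (84.6-94.7).

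**Figure D3:**
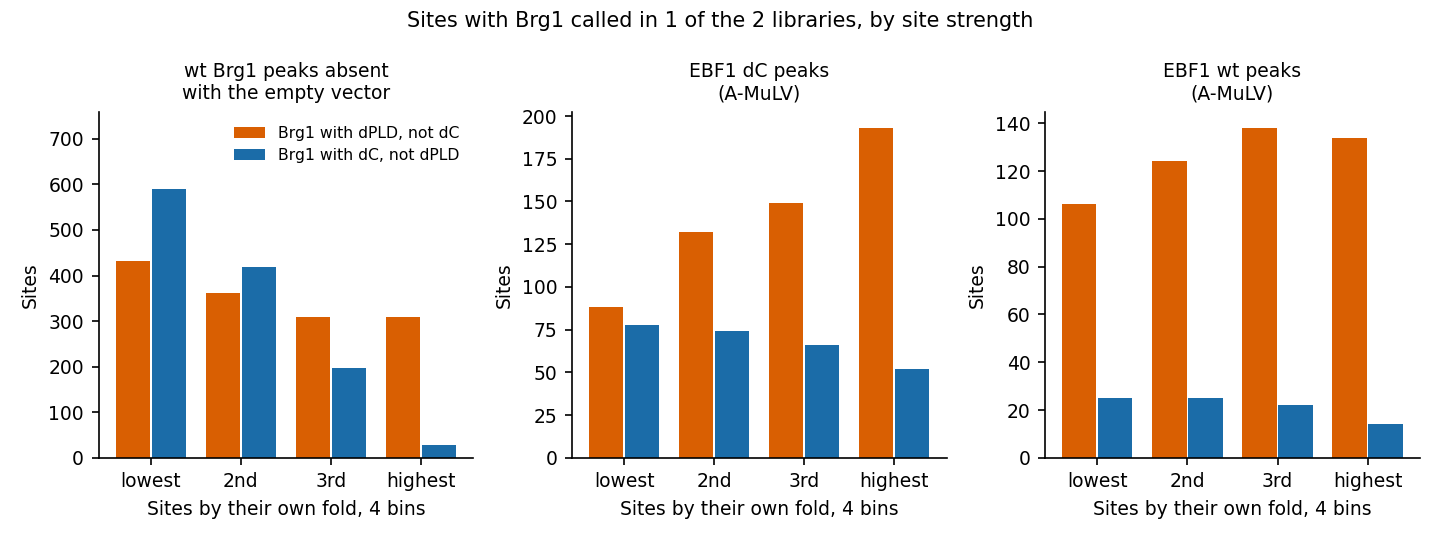
Number of sites (vertical axis) with a Brg1 peak with dPLD and not dC (orange) and with dC and not dPLD (blue), in 4 bins of the site's own fold, for gained wt Brg1 peaks, EBF1 dC peaks and EBF1 wt peaks. In gained peaks the lowest bin has 431 against 591 sites and the highest 309 against 29.

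At empty-vector peaks that wt lacked, Brg1 was called more often with dC. At 6840 empty-vector peaks absent with wt, Brg1 was called at 11.5% (10.7-12.2) with dPLD and 20.9% (20.0-21.9) with dC. The differing sites split 126 to 774, a dPLD share of 14.0% (11.8-16.4). At 10589 peaks that wt and the empty vector shared, Brg1 was present at 94.9% with dPLD and 96.6% with dC, and the split was 130 to 310 (29.5%, 25.3-34.0). That interval includes the 33.0% over all differing peaks.

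The strongest dPLD-only peaks were all sites of wt Brg1. The 10 highest, 1 per nearest gene, had folds of 9.76 to 10.9 with dPLD, and all 10 were called with F-GATA3 (6.65 to 19.3) and with wt (6.14 to 18.0), and none with the empty vector. An EBF1 dC peak lay at 6 of them and an EBF1 wt peak at 7. Of the 10 highest dC-only peaks, with folds of 11.4 to 14.0, 2 were called with F-GATA3, 3 with wt and 2 with the empty vector. An EBF1 dC peak lay at 1 of them and an EBF1 wt peak at 0.

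Zdhhc7, which encodes a protein palmitoyltransferase, held the second highest dPLD-only peak (chr8:120080743-120082927, in the gene). Its Brg1 folds were 10.9 with dPLD, 8.06 with F-GATA3 and 16.2 with wt, without a call with dC or the empty vector, and EBF1 folds were 25.5 (dC) and 23.3 (wt). A peak 15779 bp from Actb, the beta-actin gene (chr5:142923755-142924931), had Brg1 folds of 10.8 with dPLD, 6.65 with F-GATA3 and 6.14 with wt, and EBF1 folds of 62.7 (dC) and 64.3 (wt). In A-MuLV cells Brg1 was called at both sites, at Zdhhc7 with folds of 6.81 (dC) and 10.1 (wt) and near Actb with 10.4 (dC) and 17.6 (wt). Nkd2, whose product restrains Wnt signalling, had a peak in the gene of 10.7 with dPLD, 17.8 with F-GATA3 and 18.0 with wt. Clstn1, a calsyntenin gene, had 10.8, 11.0 and 16.7 in the same order, and Ttll11, a tubulin polyglutamylase gene, had 10.5, 12.6 and 14.0 with no EBF1 peak. Others had as their nearest gene Ly6m (10.2, at 22455 bp), Nuak1 (10.0, at 258576 bp), Adgrl2 (10.1, at 648904 bp) and, within the Igk locus, Rpia (10.9, at 1332538 bp).

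Among dC-only peaks, the highest lay 40752 bp from Xrcc2, a gene of homologous recombination repair, with a Brg1 fold of 14.0 with dC and no other fetal liver call. The next, 8413 bp from Umodl1 (13.5), was called in none of the other 8 lists. St6galnac3, a sialyltransferase gene, had 12.9 with dC, and it alone of the 10 had an EBF1 dC peak (9.31). A peak 35605 bp from Ccr1, a chemokine receptor gene (chr9:123923213-123926521), had folds of 12.6 with dC, 10.1 with F-GATA3, 11.3 with wt and 4.40 with the empty vector. It is the one dC-only peak of the 10 that dPLD alone lacked among the fetal liver lists. A peak 39225 bp from Runx3, a transcription factor gene of T and NK cells, had 11.8 with dC and 7.24 with the empty vector and no call with dPLD, F-GATA3 or wt. The remaining peaks lay in Slc12a3 (12.6), Maco1 (12.1), Slc44a5 (11.8) and Stk32c (11.4) and near Rcn1 (11.6).

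Gene lists were counted within 10 kb of the gene body, beside 9.97% of all 21883 protein-coding genes for dPLD-only and 16.8% for dC-only peaks. The genes of a list differ in length, which was not adjusted for. Progenitor genes stood highest for dC-only peaks, with 7 of 12 members, and had 1 with a dPLD-only peak. B-lineage genes had as many members with one as with the other, 11 of 41 each. Within 50 kb the B-lineage transcription factor genes stood highest for dC-only peaks instead, with 11 of 14 members. Progenitor genes then had 8 of 12, beside 34.0% of all genes. None of these counts was tested.

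**Figure D4:**
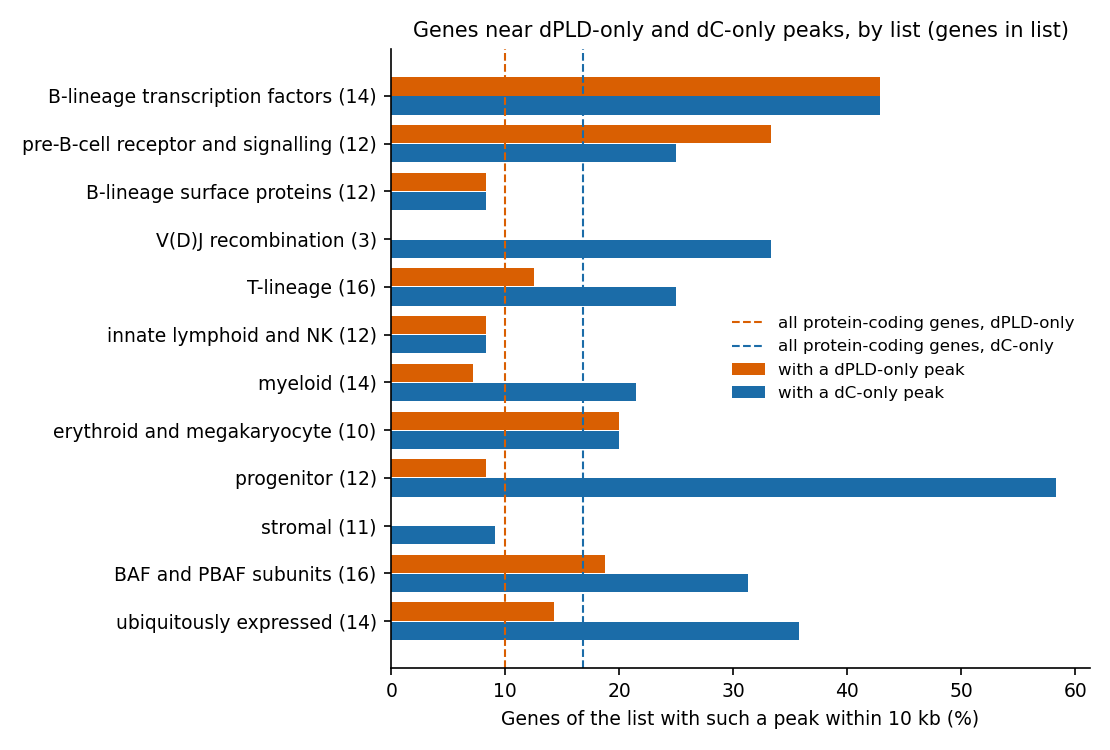
Percentage of genes in each list with a dPLD-only (orange) or dC-only (blue) Brg1 peak within 10 kb, with dashed lines for all protein-coding genes (9.97% and 16.8%). The progenitor list shows 58.3% for dC-only and 8.33% for dPLD-only peaks.

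Progenitor genes encode factors and receptors of stem and early progenitor cells. Their 15 dC-only peaks lay near Meis1, Gata2, Runx1, Hoxa9, Erg, Flt3 and Lmo2, and the single dPLD-only peak lay near Erg. The highest was near Meis1, a homeobox cofactor of Hox proteins, with a Brg1 fold of 9.65 with dC, 7.26 with wt and 6.25 with the empty vector, and no call with dPLD or F-GATA3. Gata2, which encodes a GATA factor of early progenitors, had no dPLD peak at all and 1 dC peak (6.80), also called with wt (6.73) and the empty vector (5.75). Runx1, a factor needed for the first blood stem cells, had 4 dC-only peaks of up to 6.54 beside 10 dPLD and 14 dC peaks in all. Hoxa9, a homeobox gene of progenitors, had 3 dC-only peaks (up to 6.17) and Flt3, a cytokine receptor gene, 3 (up to 5.35). Erg, an ETS factor gene, had 2 dC-only peaks (up to 5.57) and 1 dPLD-only peak (5.12), and Lmo2, a scaffold gene of blood transcription factor complexes, 1 dC-only peak (4.84). Of the 15 dC-only peaks, 5 overlapped a wt and 4 an empty-vector peak. Over all 5239 dC-only peaks these shares were 28.8% and 20.2%. In all, progenitor genes had 33 dPLD and 50 dC peaks, and with equal list lengths the counts of genes stayed at 1 and 7.

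B-lineage genes kept Brg1 peaks with both deletions. All 41 had a dPLD peak and 40 had a dC peak, with 194 and 190 peaks in sum, beside 61.7% of all protein-coding genes with a dPLD peak and 63.3% with a dC peak. More peaks with dPLD were found at 12 genes and more with dC at 9, and 20 had equal numbers. Over all genes, 8.18% had more peaks with dPLD and 15.6% more with dC. The exception without a dC peak was Ms4a1, which encodes the surface protein CD20. Its peak at chr19:11266104-11266933 had a Brg1 fold of 7.23 with dPLD, 13.9 with F-GATA3 and 14.3 with wt, and its peak at chr19:11244123-11244692 had 6.68, 8.41 and 16.5 in the same order. Neither was called with dC or with the empty vector, no EBF1 peak of either A-MuLV list lay near the gene, and these 2 were its only dPLD peaks.

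B-lineage transcription factor genes had 6 of 14 members with a dPLD-only and 6 with a dC-only peak, 3 of them with both. Ebf1 itself had 13 peaks with dPLD and 13 with dC, of which 3 were dPLD-only (up to 6.61) and 3 dC-only (up to 6.18). Pax5, the B-lineage commitment factor gene, had a dPLD-only peak of 6.00 (wt 5.83) among 8 dPLD and 7 dC peaks. Irf8 and Foxo1, both factors of early B cells, had dPLD-only peaks of 5.61 and 5.38 and no dC-only peak. Ikzf3, an Ikaros family gene, had 2 dPLD-only peaks (up to 5.12) and 1 dC-only peak (6.81), and Bach2, a repressor gene, had 1 (5.28) and 3 (up to 6.01). Their strongest peaks were shared, such as Pou2af1, a coactivator gene, with 25.5 with dPLD and 25.4 with dC.

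Genes of the pre-B-cell receptor and its signalling had 4 of 12 members with a dPLD-only and 3 with a dC-only peak. Blnk, an adaptor gene, had 2 dPLD-only peaks (up to 5.24), and Igll1, a surrogate light chain gene, 1 (4.86). Syk, a kinase gene, had a dC-only peak of 7.07, and Plcg2, a phospholipase gene, had 2 of each kind (up to 5.16 with dPLD and 6.80 with dC). Surface protein genes had 1 of 12 each, Ms4a1 with dPLD-only and Bank1, a signalling scaffold gene, with 2 dC-only peaks (up to 5.79). Among V(D)J recombination genes Dntt, the terminal transferase gene, had a dC-only peak of 4.99, and Rag1 and Rag2 had none of either kind. Over all B-lineage lists there were 17 peaks of each class, of which 9 dPLD-only and 2 dC-only peaks overlapped a wt peak. Genome-wide, a wt peak overlapped 58.3% of dPLD-only and 28.8% of dC-only peaks, so a difference of that direction was not particular to these genes. The counts of B-lineage genes depended on list length. With lists of equal length, 14 genes had dPLD-only and 7 had dC-only peaks. The shares over all genes then became 13.6% for dPLD-only and 11.7% for dC-only peaks.

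The lists of other lineages were small, so single genes move their shares. T-lineage genes had 2 of 16 members with a dPLD-only and 4 with a dC-only peak. Notch3, a Notch receptor gene, had 3 dC-only peaks (up to 7.29), Notch1 had 1 of each (5.61 with dPLD and 6.14 with dC), Tcf7 a dPLD-only peak (5.88), and Cd4 2 dC-only peaks (up to 5.27). Myeloid genes had 1 of 14 with a dPLD-only peak, Cd14 (5.24), and 3 with dC-only peaks. Of the dC-only peaks, Lyz2, the lysozyme gene, had 2 (up to 6.25) and no peak with dPLD, F-GATA3, wt or the empty vector, and Itgam, an integrin gene, had 2 (up to 5.23). Innate lymphoid and NK genes had 1 of 12 for each class, Nfil3 with dPLD-only (4.85) and Rora with dC-only (5.09). Erythroid and megakaryocyte genes had 2 of 10 for each, among them Itga2b (5.41 dPLD-only and 7.46 dC-only), Gp9 (6.94 dC-only) and Klf1 (4.80 dPLD-only). Stromal genes, which would mark the OP9 feeder cells, had 1 peak with dPLD and 2 with dC over 11 genes, with Sparc as the one member with a dC-only peak (5.48). Gata3 had no peak in any of the 9 lists.

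Subunit genes of the BAF and PBAF complexes all had peaks in both lists, 63 with dPLD and 67 with dC, beside 61.7% and 63.3% of all genes with a peak. A dPLD-only peak lay near 3 of 16 and a dC-only peak near 5. Arid1b, a BAF subunit gene, had 3 of each (up to 6.13 with dPLD and 6.74 with dC), Pbrm1, a PBAF subunit gene, a dPLD-only peak (6.38), and Smarca2, the other ATPase gene, 1 of each (5.75 and 5.09). Smarca4 had 5 dPLD and 6 dC peaks and none of either class. Ubiquitously expressed genes had 2 of 14 with a dPLD-only and 5 with a dC-only peak, led by Polr2a (6.53) in the first case and Ywhaz (5.48) in the second.

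Few genes had peaks in 1 list and none in the other within 10 kb, 1.33% of protein-coding genes for dPLD without dC (292) and 2.85% for dC without dPLD (623). A wt peak lay near 63.4% of the first and 48.3% of the second, and an empty-vector peak near 24.7% and 30.5%. The shares of all protein-coding genes near a wt or an empty-vector peak are not given here, so these values lack a background. For scale, 61.7% of all genes had a dPLD peak and 63.3% a dC peak in that window. With 3 dPLD peaks and no dC peak there were 2 genes, Bean1 (up to 8.76) and Nuak1 (up to 5.26), which had 5 and 6 wt peaks. With 3 or more dC peaks and no dPLD peak there were 10, led by Glp1r, the glucagon-like peptide receptor gene (5 peaks, up to 13.5), and Kdr, a vascular growth factor receptor gene (4 peaks, up to 7.18). The Glp1r peak of 13.5 is the one named above by its nearest gene, Umodl1, and not a further site. The genes with peaks in 1 list alone were chosen after their values were seen.

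The immunoglobulin kappa locus (Igk, chr6:67555636-70726754) held the largest group of neighbouring dPLD-only peaks. Brg1 peaks there numbered 69 with dPLD, 28 with dC, 108 with F-GATA3, 141 with wt and 2 with the empty vector. The dPLD count lay between the dC and the wt counts. Of the dPLD peaks 41 were dPLD-only, with a median fold of 6.68, and no dC peak of the locus was dC-only. The 41 overlapped a wt peak in 39 cases, an F-GATA3 peak in 36 and an empty-vector peak in 0. In A-MuLV cells 2 overlapped a Brg1 peak with dC and 36 with wt, and 6 overlapped an EBF1 peak with dC and 21 with wt. With a −log10 q of at least 20, 47 dPLD and 17 dC peaks remained. The A-MuLV Brg1 lists held 17 (dC) and 195 (wt) peaks in the locus, and 1 and 24 at that minimum.

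The heavy chain locus (Igh) showed no such difference, with 124 dPLD and 129 dC peaks beside 93 with F-GATA3, 111 with wt and 53 with the empty vector. Of these 11 were dPLD-only and 18 dC-only, with folds of up to 5.95 and 6.67. The lambda locus (Igl) had 12 dPLD and 11 dC peaks.

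The T-cell receptor alpha locus (Tcra, chr14:52427967-54224198) differed in the other direction. It held 17 Brg1 peaks with dPLD, 39 with dC, 19 with F-GATA3, 20 with wt and 44 with the empty vector. All 22 peaks that differed were dC-only, with folds of 4.35 to 10.3, of which 5 overlapped a wt and 6 an empty-vector peak. Although dC and the empty vector both had more peaks there than the other groups, most of the 22 were thus not at empty-vector peaks. The same held for dC-only peaks genome-wide, of which 28.8% overlapped a wt and 20.2% an empty-vector peak. At Tcra, 10 dPLD and 18 dC peaks remained with a −log10 q of at least 20. Without that minimum, Tcrg had 6 dPLD and 10 dC peaks and Tcrb 14 and 15. Igk and Igh were chosen with earlier results known, and the T-cell receptor loci after the values were seen.

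**Figure D5:**
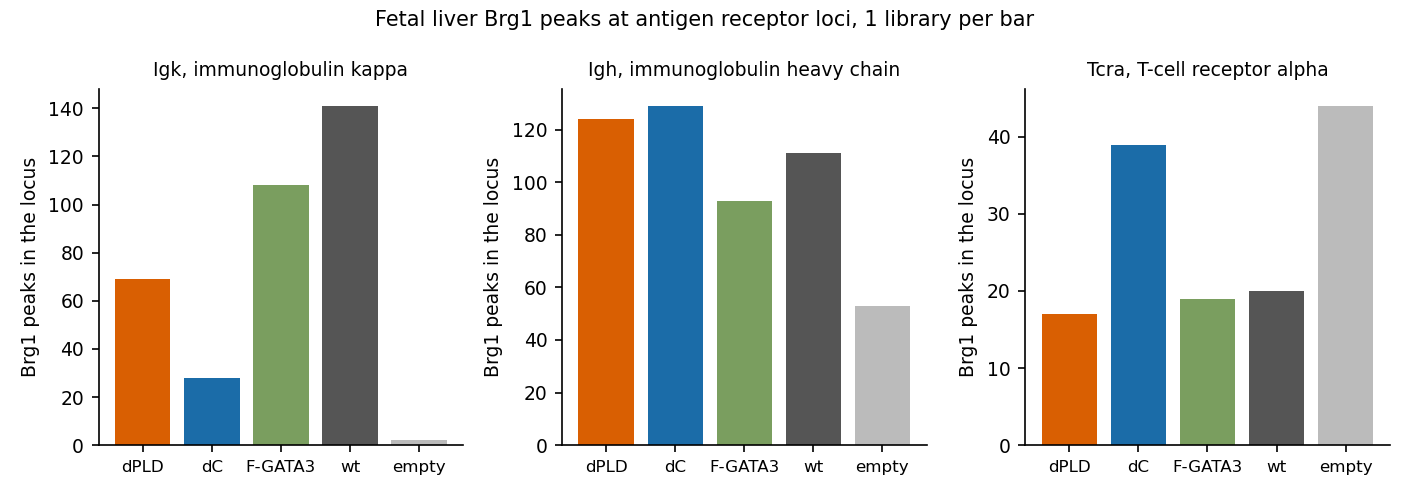
Number of fetal liver Brg1 peaks (vertical axis) in the Igk, Igh and Tcra loci in each of the 5 libraries. Igk has 69 peaks with dPLD and 28 with dC, Igh 124 and 129, and Tcra 17 and 39.

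Along the chromosomes, 1683 windows of 1 Mb held at least 1 peak of either class. More dC-only than dPLD-only peaks were found in 1125, the reverse in 360, and equal numbers in 198. The 5 windows with the largest dPLD-only excess included 3 of chromosome 6 that overlap Igk, with 19, 14 and 8 dPLD-only peaks and 0 dC-only peaks each. Another was on chromosome 7 from 101000001, with 11 dPLD-only and 2 dC-only peaks around Arap1, Fchsd2, Pde2a, Stard10 and Numa1. The last was on chromosome 10 from 84000001, with 9 and 0, where the nearest genes of the dPLD-only peaks included Nuak1 and Ckap4.

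The largest dC-only excess was in the Tcra window on chromosome 14 from 53000001, with 0 dPLD-only and 17 dC-only peaks. The window on chromosome 6 from 129000001, which holds NK receptor genes of the Klr and Clec2 families, had 1 and 17, near Klrk1, Klrb1f, Klri1, Clec2d and Cd69 among others. Windows on chromosome 2 from 166000001 (3 and 18, near Sulf2 and Prex1), chromosome 3 from 89000001 (2 and 16) and chromosome 10 from 60000001 (2 and 16) followed. With lists of equal length the excess was smaller in all 5 windows, with 0 dPLD-only and 11 dC-only peaks at Tcra, 1 and 7 in the NK receptor window, 4 and 13 on chromosome 2, 3 and 4 on chromosome 3 and 3 and 10 on chromosome 10. No chromosome of the 19 autosomes or X had more dPLD-only than dC-only peaks, and there the dPLD-only share of the differing peaks ran from 25.6% on chromosome 14 to 36.8% on X. Chromosome Y had 0 dPLD-only and 8 dC-only peaks.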

How the data were processed

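Peak lists of 9 ChIP-seq libraries (5 fetal liver Brg1, 2 A-MuLV Brg1, 2 A-MuLV EBF1) on GRCm38 were used as deposited, and the 5 inputs and the signal tracks were not analysed here. The submitters' processing notes name MACS2 2.1.2, Bowtie2 2.3.3.1, deepTools 3.3.1 and SAMtools 1.9. The peak threshold, duplicate handling and control were not given in the sources used here. Fold enrichment, a ratio, and the −log10 p and −log10 q were deposited by the authors per peak, with a score equal to 10 times the −log10 q. What the columns mean was taken from the narrowPeak format and checked against the values.

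Python 3.11.15, numpy 2.4.6, pandas 2.3.3, scipy 1.17.1 and matplotlib 3.10.9 were used. Peaks on chromosomes 1 to 19, X and Y counted as shared from 1 bp of overlap, and 8 dPLD and 9 dC peaks on other sequences were left out. Relative depth came from peaks whose fold and −log10 p gave whole reads (100% within 0.01 reads), assuming 1 control for all fetal liver libraries. The overlap and depth code was tested on simulated data. Genes and promoters came from RefSeq tables for GRCm38.p6, all 146 members of the 12 gene lists matched, and each peak took the name of its closest protein-coding gene.

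Members, lists and rules were chosen with earlier results of these data known. Named were the 10 highest peaks of each class, list members with the highest class peaks, Ebf1, Gata3, Smarca4, Igk, Igh, the 5 windows of 1 Mb with the largest excess each way, and the promoters with the highest class peaks. The gene name of 1 peak is not reported here. Other settings tried were a minimum −log10 q of 20, equal list lengths, 50% overlap, summits within 200 bp, gaps up to 1000 bp, 50 kb around genes, a longer palindrome and, added after seeing the data, leaving out Igk.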

Additional observations from a re-analysis of the deposited data

How the results depend on the processing

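No paired analysis was possible because each group had 1 library, and for the same reason no replicate could be left out. Values are given for dPLD first and dC second. A −log10 q of at least 20 in both lists gave 1600 dPLD-only and 3812 dC-only peaks. Under the first of these, the dPLD-only and dC-only peaks called in other lists were 94.8% and 74.9% for wt, 84.1% and 60.0% for F-GATA3, 20.6% and 32.4% for the empty vector, 25.7% and 10.3% for EBF1 dC, and 22.0% and 3.57% for EBF1 wt. The dPLD share of differing sites was then 73.2% at EBF1 sites of both forms, 78.8% at wt-alone sites, 33.6% at dC-alone sites and 39.2% at gained peaks, which turned the direction of the last. Of the 1600, 207 had no dC peak of any strength, and of the 3812, 492 had no dPLD peak. Igk kept 17 dC peaks, and Igh 75 dPLD and 80 dC peaks.

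Equal list lengths gave dPLD shares of 90.6% (both forms), 59.6% (dC alone) and 68.8% (gained peaks). Overlaps were then 60.3% and 31.1% for wt, 15.1% of dPLD-only peaks for EBF1 wt, and 18.2% (F-GATA3) and 22.5% (empty vector) of dC-only peaks. Genes with dC-only peaks were 7 (B-lineage) and 0 (innate lymphoid and NK), and genes with dPLD-only peaks 5 (T-lineage) and 2 (myeloid), beside 13.6% (dPLD-only) and 11.7% (dC-only) of all genes. Summits within 200 bp gave 5289 and 8040 peaks, overlaps of 50.8% and 34.3% (wt), 14.5% and 18.8% (empty vector), 10.8% and 2.19% (EBF1 wt) and 13.4% and 5.11% (EBF1 dC), 25.3% of dC-only peaks for F-GATA3, and dPLD shares of 73.0% (both forms) and 51.3% (gained). Gaps of up to 1000 bp gave dPLD shares of 79.7% (both forms) and 80.1% (wt alone), and dC-only overlaps of 21.6% (empty vector), 2.00% (EBF1 wt) and 5.68% (EBF1 dC). Within 50 kb, genes with dC-only peaks were 23 (B-lineage), 6 (myeloid), 6 (innate lymphoid and NK) and 8 (T-lineage), and 7 myeloid genes had dPLD-only peaks, beside 21.9% (dPLD-only) and 34.0% (dC-only) of all genes. The longer palindrome lay in 2.08% of dPLD-only and 0.306% of dC-only promoter windows. The other 67 alternatives of the main results, all those without Igk among them, moved by less than their interval or 1.5 times. The causes were not tested. Depth limits all calls to peaks past the authors' threshold.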
